A study of Mus musculus with 10 samples.

Results

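Genes of the LIM homeodomain family (Isl1, Isl2, Lhx1, Lhx2, Lhx3, Lhx4, Lhx5 and Lhx9) and the homeodomain gene Mnx1 were examined in YFP-positive cells sorted from mouse embryos at e10.5. These 9 genes, of 48974 with counts, were chosen by name as the transcription factors that label motor neurons (MNs) and their neighbouring interneurons in the ventral spinal cord. The series compared 5 control with 5 cdKO libraries to find genes that depend on the Onecut factors Oc1 and Oc2 (Onecut1 and Onecut2 in the annotation). Both groups carried Olig2-Cre+/- and Rosa26R-YFP+/-. Control embryos were Oc1+/Flox and Oc2+/Flox and thus kept a wild-type allele of each gene, while cdKO embryos were Oc1-/Flox and Oc2-/Flox. YFP marks every cell descended from a cell that expressed Olig2, so the sort was not restricted to MNs, and the study itself saw YFP in V3 interneurons next to them. The labels do not say whether a library came from a single embryo or from a pool, so p-values measure the spread between libraries only.

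LIM homeodomain proteins bind DNA through a homeodomain and bind each other or the adaptor Ldb1 through their LIM domains, and their combinations are known to distinguish neuronal classes. Isl1 with Lhx3 and Ldb1 specifies MNs, Lhx3 bound to Ldb1 without Isl1 specifies V2 interneurons, and Mnx1 then maintains the MN fate. Lhx3 and Lhx4 persist in medial motor column neurons, Lhx1 marks the lateral part of the limb motor column and, like its close relative Lhx5, several interneuron classes, and Lhx2 and Lhx9 mark the dorsal dI1 interneurons.

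The recognition helix of the homeodomain, the part that reads the DNA, is strongly conserved in this family. The 30 coding bases of that helix are shown 5′ to 3′ for the 7 genes whose counts could be tested, because reads could be misassigned between relatives only where their sequences match. They were read from the GENCODE M21 transcripts, and capitals mark the bases that differ from the closest relative, Isl1 against Isl2, Lhx3 against Lhx4 and Lhx1 against Lhx5.
Isl1: tggtttcaAaacaagcgGtgcaaggacaag
Isl2: tggtttcaGaacaagcgTtgcaaggacaag
Lhx3: tggttCcagaaTCgCCgGgcTaaggaAaaG
Lhx4: tggttTcagaaCAgAAgAgcCaaggaGaaA
Lhx1: tggttCcagaaTcgaCgCtccaaGgaGcgA
Lhx5: tggttTcagaaCcgaAgGtccaaAgaAcgC
Mnx1: tggttccagaaccgccgaatgaaatggaaa
Isl1 and Isl2 differed at 2 of these 30 bases, Lhx1 and Lhx5 at 7, and Lhx3 and Lhx4 at 9. Over whole transcripts, the longest identical run was 23 bases between Isl1 and Isl2 and 20 bases in both other pairs. The longest between any of the 36 pairs was 65 bases, between Lhx5 and Lhx9. Reads were 150 bases long, so no read of full length could match 2 of these genes perfectly. The 300-base promoter sequences listed by RefSeq (GRCm38.p6) for 8 of the 9 genes, 10 promoters in all, held neither the letters ATCGAT nor ATCAAT on either strand, which are motifs of the Onecut type, and no match could count for both. ATCGAT stood in 0.93% and ATCAAT in 7.54% of the 32851 promoters of that table.

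The libraries held between 63932395 and 107709534 counts in control and between 72315782 and 84249157 in cdKO samples. The files give counts on parts of exons (bins), and a read adds to each bin it touches whatever its strand, so the totals are of overlaps rather than reads. Values are CPM, a gene's counts over all its bins per 1000000 counts of the library total, scaled by edgeR's TMM method. The first exonic block of Oc1 had 125, 80, 205, 210 and 63 counts in control replicates 1 to 5 and 0, 17, 0, 3 and 0 in cdKO replicates 1 to 5, a cdKO mean of 2.93% of control (two-sided exact permutation p = 0.00794, the lowest that 5 against 5 can reach). Among the Oc1 blocks, only the first showed a loss of that depth. The second Oc1 block stood at 94.3% of control (exact permutation p = 0.841) and the third at 61% (exact permutation p = 0.198), so Oc1 reads remained in cdKO libraries. Oc2 measured 0.988 to 9.40 CPM in control and 1.35 to 19.2 CPM in cdKO, with overlapping groups. The study ascribes its Oc2 reads to shortened transcripts that the null allele still makes and that yield no functional protein, so these counts do not test the loss of Oc2.

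Replicate 5 of each group stood apart and touch several results. In cdKO replicate 5 the median gene had 42.2% of its counts on its last exonic block, against 20.3% to 26.1% in the other 9 libraries. Control replicate 5 had the lowest summed level of 5 MN genes (Chat, Slc18a3, Slc5a7, Prph and Ret), 39.6 CPM, against 94.6 to 367 CPM in the other 9. It also had the highest sum of 5 genes of p3 progenitors and V3 neurons, 100.2 CPM against 21.9 to 39.3 CPM. That sum came mostly from Nkx2-9 (84.5 CPM) and Nkx2-2 (15.1 CPM), with Olig3 at 0.384 CPM. The other genes of the list, Sim1 (0.148 CPM) and Uncx (0.0443 CPM), were instead at their lowest of the 10 libraries. Several results that rest on these libraries are given with and without them. The group means of within-library ratios and the levels per kilobase include all libraries.

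Isl1 (chromosome 13, 116298281 to 116309689 of GRCm38, minus strand), the earliest LIM homeodomain gene of newborn MNs, was the member with the widest gap between the groups. It measured 253, 135, 208, 182 and 347 CPM in control replicates 1 to 5. In cdKO replicates 1 to 5 it measured 95.8, 164, 97.7, 159 and 118 CPM. Of the 5 controls, 4 lay above every cdKO library, and 3 cdKO libraries lay below every control, but control replicate 2 fell among the cdKO values, so the groups overlapped. The means were 225 ± 80.5 CPM (SD, n = 5) in control and 127 ± 32.9 CPM (SD, n = 5) in cdKO, so cdKO stood at 56.4% of control. edgeR's quasi-likelihood test gave a log2 fold change of -0.83 ± 0.31 (SE). Its unadjusted p was 0.0180, and after Benjamini-Hochberg adjustment over 17838 genes it was 0.939, which did not pass the threshold of 0.05. The exact two-sided permutation test of log2(CPM + 0.5) gave p = 0.0317, unadjusted. In bulk samples, fewer cells of a type and less RNA per cell cannot be told apart.

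No member passed the adjusted threshold, and the share called among all 17838 genes was likewise 0% by edgeR. DESeq2 called 19 genes and limma-voom with sample quality weights 13, none of them a member. At an unadjusted p under 0.05, 1 of the 7 tested members was lower (Isl1) and 0 were higher, against a background of 0.818% of all tested genes lower and 4.18% higher. The fold changes of 3 members were below 0 and of 4 above 0, with a median of 0.02 on the log2 scale against -0.02 for all tested genes. This median lay between -0.14 (without control replicate 5) and 0.19 (DESeq2) over the 21 alternatives. All 9 members had overlapping groups. Full separation of 5 against 5 libraries falls in a share of only 0.00794 of the 252 arrangements, so overlap alone says little about these genes.

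**Figure D1:**
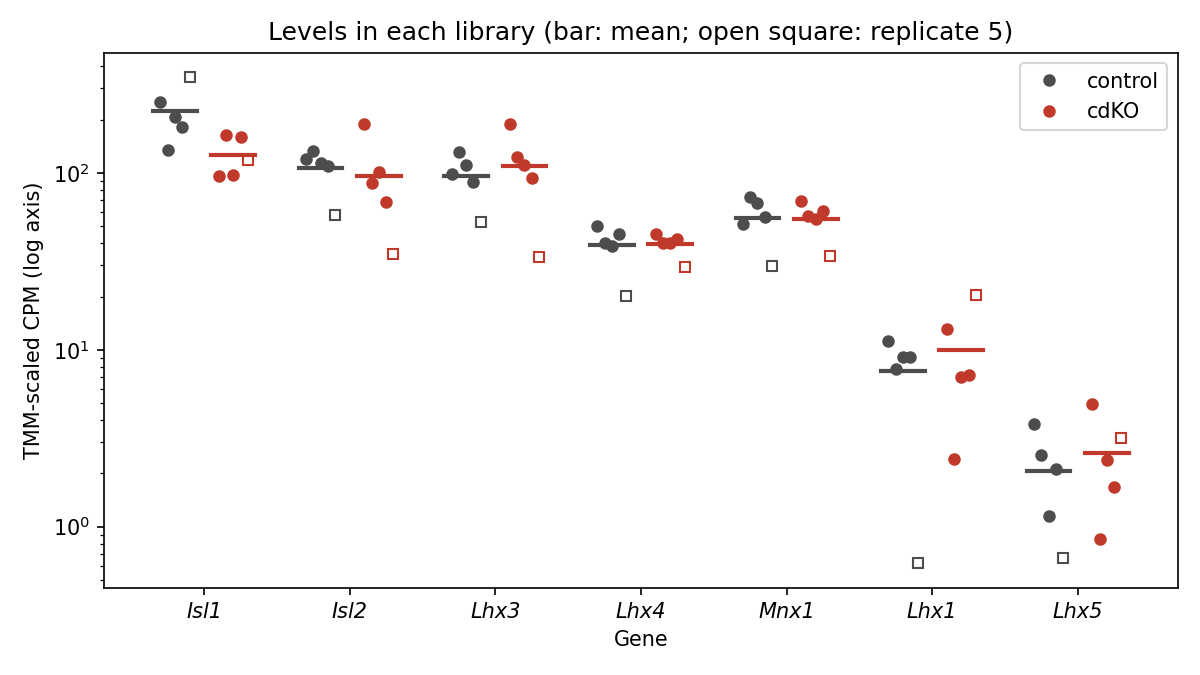
TMM-scaled CPM (log axis) of the 7 tested members in each library, control in grey and cdKO in red, with a bar at each group's mean and an open square for replicate 5. Control replicate 5 is the highest library for Isl1 at 347 CPM and the lowest control library for the other 6 genes.

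The lower Isl1 level in cdKO libraries was not limited to part of the gene. Of its 7 exonic blocks, 6 had at least 200 counts over all libraries, and in the bin with most counts of each the ratio of the cdKO to the control mean was 0.494 to 0.651. In 4 of these 6 bins the exact permutation p was under 0.05, with a range of 0.0238 to 0.198. The last block, where cdKO replicate 5 was high, gave 0.651 with that library and 0.578 without it. Without cdKO replicate 5, the ratios of the 6 bins lay between 0.556 and 0.596. A 69-base part of the sixth block (chromosome 13, 116301710 to 116301778), absent from the shorter annotated coding transcript of Isl1, had 82.5 ± 4.33% of the counts of the adjoining 99-base part in control and 82.3 ± 7.12% in cdKO libraries (SD, n = 5 each, exact permutation p = 0.960).

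**Figure D2:**
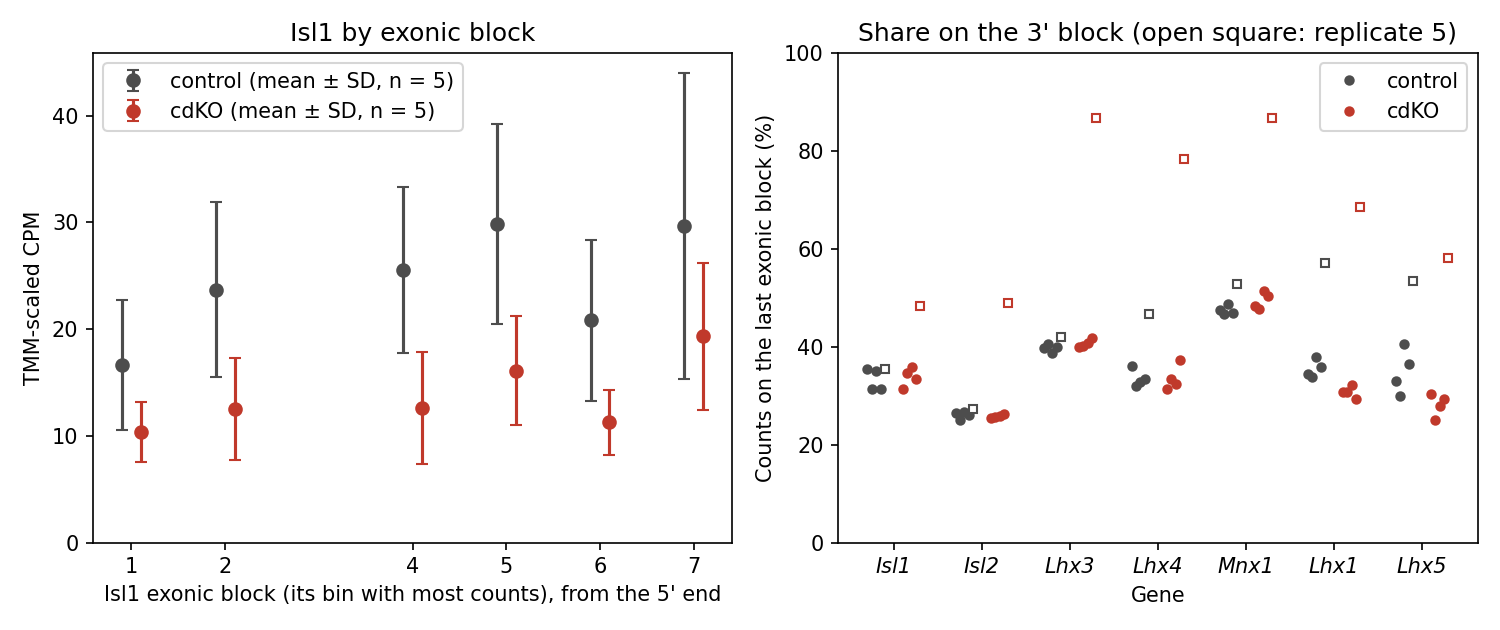
Left, CPM in the bin with most counts of each Isl1 exonic block (mean ± SD, n = 5 per group, the third block omitted for its low counts), where the ratio of cdKO to control means is 0.494 to 0.651. Right, the percentage of each gene's counts that fell on its last exonic block in each library, where cdKO replicate 5 (open red square) reaches 86.7% for Lhx3 and 86.8% for Mnx1.

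The Isl1 difference was set beside control replicate 5 and beside genes of other cells known to express Isl1. The 347 CPM of control replicate 5 was the highest Isl1 value, although the summed level of its MN genes was the lowest of all libraries. Without control replicate 5 the log2 fold change of Isl1 was -0.62 with an unadjusted edgeR p of 0.0542, and without replicate 5 of both groups the means were 194 ± 49.2 CPM in control and 129 ± 37.5 CPM in cdKO (SD, n = 4 each). Isl1 is also known in sensory neurons and in dorsal interneurons. The 8 sensory neuron genes, 7 of them tested and none called, summed to 18.4 to 48.9 CPM in control and 14.5 to 36.1 CPM in cdKO libraries. The 8 genes of dI2 to dI6 interneurons, 2 of them tested, summed to 0.532 to 2.96 CPM in control and 2.72 to 10.2 CPM in cdKO. The part of these populations in the Isl1 difference was not tested.

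Isl2 (chromosome 9, 55538672 to 55546180, plus strand), the paralog that follows Isl1 in MNs, had closer group means, and whether its difference departs from that of Isl1 was not tested. It measured 119, 134, 113, 109 and 57.9 CPM in control replicates 1 to 5. In cdKO replicates 1 to 5 it measured 189, 87.4, 101, 68.1 and 35.0 CPM. An annotated gene named Gm17226 overlaps the Isl2 locus but shares none of its bins. Replicate 5 was the lowest library of each group and cdKO replicate 1 the highest of all 10. The log2 fold change was -0.15 ± 0.40 (SE, edgeR, unadjusted p = 0.718, adjusted p = 0.998), and 0.07 without cdKO replicate 5. Within a library, Isl1 exceeded Isl2 by 1.06 ± 0.94 on the log2 scale in control and by 0.57 ± 1.09 in cdKO (SD, n = 5 each), and these within-library ratios overlapped between the groups.

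Lhx3 (chromosome 2, 26200212 to 26208289, minus strand) and Lhx4 (chromosome 1, 155698031 to 155751684, minus strand), the pair that acts with Isl1 in newborn MNs, differed between the groups by less than their standard errors. Lhx3 measured 99.1, 132, 110.3, 89.0 and 52.6 CPM in control and 189, 123, 111, 93.3 and 33.5 CPM in cdKO libraries. Its log2 fold change was 0.19 ± 0.40 (SE, edgeR, adjusted p = 0.997). Lhx4 measured 49.8, 40.3, 38.8, 45.4 and 20.1 CPM in control and 45.1, 40.3, 40.1, 42.5 and 29.5 CPM in cdKO libraries. Without replicate 5 the 4 remaining cdKO libraries spanned only 40.1 to 45.1 CPM. Its log2 fold change was 0.02 ± 0.28 (SE, edgeR, adjusted p = 0.999). Lhx4 stood below Lhx3 by 1.31 ± 0.33 on the log2 scale within control libraries and by 1.29 ± 0.70 within cdKO libraries (SD, n = 5 each).

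Lhx3 has a pair of alternative first exons that start different protein forms. The upstream one (26208102 to 26208289), which an annotated gene named Gm27196 overlaps, took 32.3 ± 3.52% of the counts on both first exons in control and 29.9 ± 12.4% in cdKO libraries (SD, n = 5 each, exact permutation p = 0.929). The other 9 libraries lay between 27.3% and 38.3%, and cdKO replicate 5 had 2 of 25 counts there, 8.0% with a Wilson 95% interval of 2.22% to 25.0%. In that library 86.7% of the Lhx3 counts lay on the last exonic block, against 38.8% to 42.0% in the other 9, and its first exons had 25 counts together.

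Mnx1 (chromosome 5, 29473034 to 29478470, minus strand), whose product HB9 keeps MNs from taking up interneuron traits, had the smallest difference of the 7 tested members. It measured 51.7, 72.6, 67.2, 56.4 and 29.9 CPM in control and 69.6, 57.1, 54.8, 60.5 and 33.9 CPM in cdKO libraries. The means were 55.6 ± 16.6 and 55.2 ± 13.2 CPM (SD, n = 5 each), with replicate 5 lowest in both groups. Its log2 fold change was -0.009 ± 0.30 (SE, edgeR, adjusted p = 0.999). Isl1 exceeded Mnx1 within a library by 2.01 ± 0.99 on the log2 scale in control and by 1.20 ± 0.54 in cdKO (SD, n = 5 each), and Lhx3 minus Isl1 was -1.21 ± 0.98 in control and -0.37 ± 1.05 in cdKO. Both ratios overlapped between the groups and, being within a library, do not depend on its scaling.

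**Figure D3:**
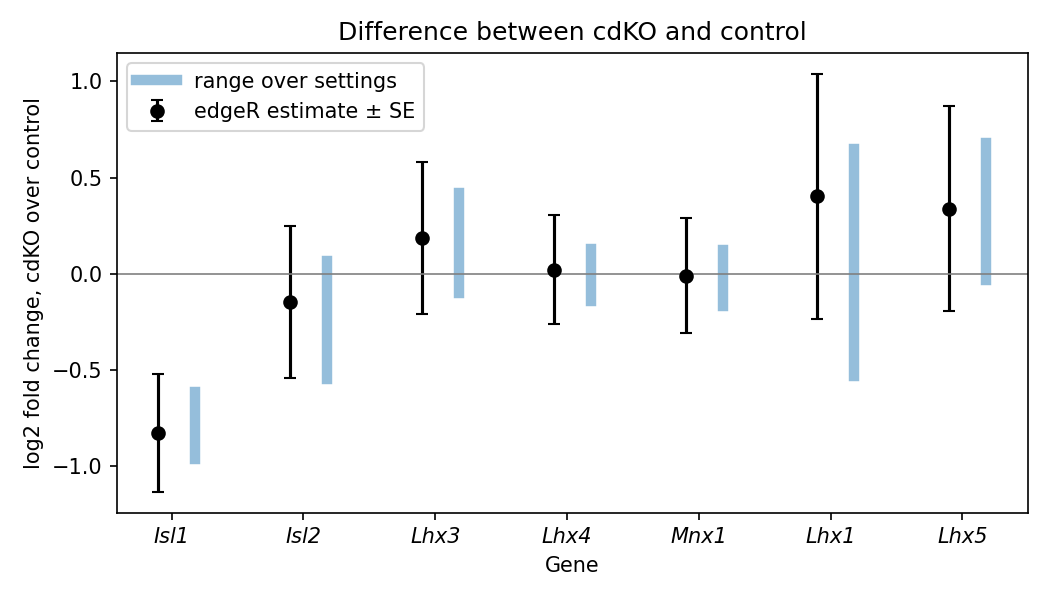
log2 fold change of cdKO over control for the 7 tested members, with the edgeR estimate ± SE (black) and the range over the alternative settings (blue). Isl1 stays between -0.96 and -0.62, and the range of each of the other 6 genes includes 0.

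Lhx1 (chromosome 11, 84518284 to 84525535, minus strand) and Lhx5 (chromosome 5, 120431699 to 120441223, plus strand), which mark interneurons and, for Lhx1, lateral motor column neurons, were far lower than the MN genes. Lhx1 measured 11.2, 7.82, 9.05, 9.10 and 0.621 CPM in control and 13.1, 2.40, 7.0, 7.17 and 20.4 CPM in cdKO libraries. Both extremes belonged to replicate 5, with 42 counts in control and 1035 in cdKO. The log2 fold change was 0.40 ± 0.64 (SE, edgeR, adjusted p = 0.997), and -0.04 without cdKO replicate 5. In that library 68.5% of the Lhx1 counts lay on the last block, against 29.3% to 32.1% in the other cdKO libraries. Lhx5 measured 3.79, 2.53, 1.15, 2.12 and 0.665 CPM in control and 4.93, 0.857, 2.38, 1.67 and 3.15 CPM in cdKO libraries. Its log2 fold change was 0.34 ± 0.53 (SE, edgeR, adjusted p = 0.997). The first exon of Lhx5 is shared with Gm27199, and since strand was not used, reads of the overlapping genes cannot be told apart.

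Lhx2 (chromosome 2, 38339281 to 38369733, plus strand) and Lhx9 (chromosome 1, 138825186 to 138848577, minus strand) did not pass the filter on low counts and were not tested. Lhx2 had 9, 14, 6, 1 and 28 counts in control and 14, 0, 4, 62 and 0 counts in cdKO libraries. Lhx9 had 0, 0, 2, 8 and 0 counts in control and 0, 0, 7, 7 and 4 counts in cdKO libraries. A count of 0 allows up to 3 counts, which is 0.0288 to 0.0591 CPM in these libraries and covers counting error only. The other dI1 genes Atoh1, Barhl1 and Barhl2, none of them tested, summed to 0.0384 to 0.310 CPM in control and 0 to 0.25 CPM in cdKO libraries.

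Per kilobase of counted exon, the members fell into tiers. Isl2 (46.2 ± 19.7 CPM per kilobase, SD over 10 libraries), Isl1 (44.4 ± 19.6) and Lhx3 (33.9 ± 14.0) led, and neither the step from Isl2 to Isl1 (exact sign-flip permutation test within libraries, p = 0.924) nor the step from Isl1 to Lhx3 (exact p = 0.244) was larger than the spread. Mnx1 (24.6 ± 6.28 CPM per kilobase) lay below Lhx3 in 9 of 10 libraries (exact p = 0.0156). Lhx4 (6.83 ± 1.49 CPM per kilobase) lay below Mnx1 in all 10 libraries (exact p = 0.00195). Lhx1 followed at 2.16 ± 1.35 and Lhx5 at 0.864 ± 0.502 CPM per kilobase (exact p = 0.00391 for that step). Lhx2 averaged 0.0384 CPM per kilobase and Lhx9 0.0040, both near the floor. With the single bin of most counts in place of the sum, the leading order was Isl2, Lhx3, Mnx1 and Isl1, and the step from Mnx1 to Isl1 had an exact p of 0.400, so the order among these 4 genes depends on the bins counted.

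Few pairs of members were correlated across libraries. Pearson and Spearman correlations of log2(CPM + 0.5) were computed for all 36 pairs over the 10 libraries, with permutation p-values adjusted over the pairs. By Pearson's r 3 pairs passed, and by Spearman's rho 0. Isl2 and Lhx3 had r = 0.927 (permutation p = 0.00037, adjusted p = 0.0133) and rho = 0.758 (permutation p = 0.0147, adjusted p = 0.177). Lhx3 and Mnx1 had r = 0.887 (permutation p = 0.00279, adjusted p = 0.0335) and rho = 0.770 (permutation p = 0.0127, adjusted p = 0.177). Lhx1 and Lhx5 had r = 0.815 (permutation p = 0.00192, adjusted p = 0.0335) and rho = 0.806 (permutation p = 0.00717, adjusted p = 0.177).

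These relations rested in part on replicate 5 of both groups. Without the 2 libraries farthest from the median of the first gene, r was 0.743 for Isl2 and Lhx3 and 0.633 for Lhx3 and Mnx1, where the libraries left out were replicate 5 of both groups. For Lhx1 and Lhx5 it was 0.557 without control replicate 5 and cdKO replicate 2. Without replicate 5 of either group or of both, 0 of 36 pairs passed, and the same held without cdKO replicate 1. With group means removed, 4 pairs passed. For Isl1, r was -0.20 to Isl2, -0.32 to Lhx3 and -0.42 to Mnx1, none of which passed, and without control replicate 5 and cdKO replicate 1 these were 0.41, 0.26 and 0.27.

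**Figure D4:**
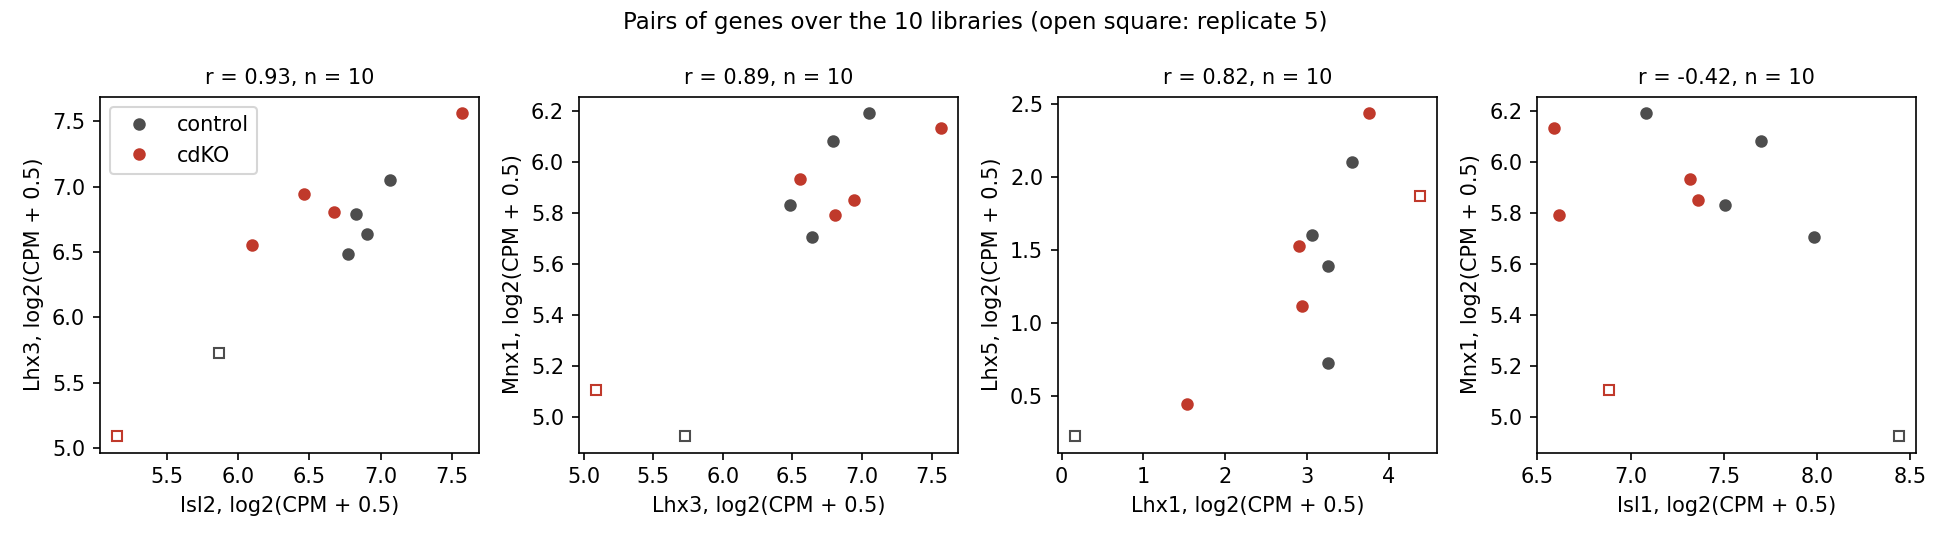
log2(CPM + 0.5) of 4 pairs of genes in the 10 libraries, control in grey and cdKO in red, with an open square for replicate 5. The 3 pairs that passed by Pearson's r are on the left, and in the panel of Isl1 and Mnx1 control replicate 5 lies at the highest Isl1 and the lowest Mnx1.

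With group means removed, the genes most like each member over the 10 libraries were taken from the 3 highest Pearson r among the other tested genes of at least 1 CPM that do not overlap it. They were Alg6 (0.951) and Golga7 (0.939) for Isl1, and Smox (0.978), Gorasp1 (0.978) and Dgat2 (0.976) for Isl2. For Lhx3 they were Tnip1 (0.994), Gorasp1 (0.992) and Abhd4 (0.992), and for Mnx1 Chtf8 (0.983), Pcdh1 (0.979) and Dis3l2 (0.979). For Lhx4 they were Epb41l3 (0.980), Cyth3 (0.980) and Stx2 (0.975), for Lhx1 Bcl11a (0.975), Nmnat2 (0.974) and Aifm2 (0.965), and for Lhx5 Dlk1 (0.983), Snx32 (0.978) and Lmcd1 (0.976). No LIM homeodomain gene was among them, and the points share library depth and the separate replicate 5 libraries.

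Genes that work with the LIM code were counted in 6 lists, and none of their members passed the adjusted threshold in edgeR. Among 10 LIM domain cofactors, all tested, 9 had fold changes above 0 (median 0.19 on the log2 scale, against -0.02 for all genes) and 1, Ldb2, was higher at an unadjusted p under 0.05. That split did not hold in every setting. With library size alone 5 were above and 5 below 0 (median 0.02). The same counts came from limma-voom with sample quality weights (median 0.04), which keeps the TMM scaling. DESeq2's size factors, another scaling, left 9 above and 1 below 0 (median 0.20). Ldb2, a relative of the adaptor Ldb1, measured 2.07 to 3.61 CPM in control and 2.19 to 16.8 CPM in cdKO, a log2 fold change of 2.00 ± 0.51 (SE, edgeR, unadjusted p = 0.00164, adjusted p = 0.939). Ldb1 itself measured 53.4 ± 19.2 CPM in control and 62.5 ± 15.5 CPM in cdKO (SD, n = 5 each). The other LIM homeodomain genes Lhx6, Lhx8, Lmx1a and Lmx1b summed to 0.719 to 1.83 CPM in control and 0.922 to 1.67 CPM in cdKO.

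Among 11 MN determination genes, 9 had fold changes below 0 (median -0.20), and Onecut1 and Onecut3 were lower at an unadjusted p under 0.05. Onecut3 measured 0.330 to 0.682 CPM in control and at most 0.0381 CPM in cdKO, with groups that did not overlap (edgeR, adjusted p = 0.111). Both are Onecut genes, and Onecut1 is a target of the deletion. Olig2, which drives the Cre and directs MN progenitors, measured 66.0 ± 19.1 CPM in control and 46.6 ± 19.3 CPM in cdKO (SD, n = 5 each). The median log2 fold change was 0.23 over 4 cholinergic genes, but -0.05 without control replicate 5, 0.002 without cdKO replicate 1, 0.68 without control replicate 1 and 0.04 with library size alone. It was -0.26 over 10 motor column genes, of which 8 were below 0, and -0.37 over 5 axon guidance genes downstream of the LIM code. Over the 21 alternatives the motor column median stayed between -0.50 and -0.08, and the axon guidance median between -0.52 and 0.08, above 0 only with the last exonic block alone. In these 3 lists 0 genes had an unadjusted p under 0.05 in the reported edgeR test, but some alternatives gave a few. At that threshold limma-voom with sample quality weights had 2 motor column genes higher and 3 lower, and 1 axon guidance gene lower.

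Markers of other cells were present at low levels. The 8 mesenchyme genes summed to 7.32 to 9.56 CPM in control and 8.03 to 13.5 CPM in cdKO, and the 9 erythroid genes to 0.901 to 19.1 and 2.91 to 66.1 CPM. At an unadjusted p under 0.05 the dorsal interneuron gene Prrxl1, the mesenchyme genes Twist1 and Col1a2 and the globin genes Hba-a1 and Hba-a2 were higher in cdKO libraries, none with an adjusted p under 0.05. The progenitor list summed to 1396 to 2709 CPM in control and 1413 to 2712 CPM in cdKO, with replicate 5 highest in each group. Most of these sums was Hes5 and Vim, at 1939 and 447 CPM in control replicate 5 and 1414 and 1080 CPM in cdKO replicate 5. The list's genes did not move together. Nkx6-1 and Sox2 were highest in replicate 5 of each group. Yet Olig2 was at its lowest of the 10 libraries in cdKO replicate 5 (26.3 CPM), as were Olig1 (5.07 CPM) and Vim in control replicate 5. The V2, V1 and V0 interneuron lists reached at most 53.1, 19.9 and 2.86 CPM in any library, floor plate genes 48.9, neural crest and glia genes 32.5, endothelial genes 3.25 and macrophage genes 6.93. The part of these cells in the members' values was not tested.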

How the data were processed

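RNA was prepared with a NEBNext Ultra kit and sequenced on an Illumina HiSeq in paired-end mode. The authors deposited raw counts per exon bin for each of the 10 samples, without normalization. Their processing notes name bcl2fastq 2.17, Trimmomatic 0.36, STAR 2.5.2b, Subread 1.5.2, DESeq2 and GRCm38. Tiny bins of at most 5 bases flanked by touching bins (3531 of them) held a median of 1.02 times their lower neighbour's counts, and 16 of 16 intervals that appear on both strands carry equal counts, so a read adds to each bin it overlaps and strand was not used. The value of a gene thus also depends on how its reads are spread along it. Bins were given to genes by GENCODE M21, leaving out bins of unclear ownership (1.19% of counts). Genes passing filterByExpr (minimum count 10) were tested with edgeR 4.0.16 in R 4.3.3 (quasi-likelihood test, TMM, Benjamini-Hochberg adjustment, threshold 0.05), a fit tested on simulated data. DESeq2 1.42.0 and limma 3.58.1 (voom) were alternatives. Single values were compared by exact two-sided permutation over 252 arrangements, and correlations by 100000 permutations (SciPy 1.17.1, pandas 2.3.3). No 2 libraries of a group were duplicates. Groups and replicate numbers came from the sample titles. The titles give e10.5 throughout, but the sample descriptions carry a running number in its place. Named genes were all 9 members, list genes with an unadjusted p under 0.05 or needed for a level, and the 3 most correlated genes of each member. Not every gene that met this rule is reported here. The members and lists were chosen with earlier results of these data known. Intervals and floors cover counting error only, since reads without molecular identifiers are not independent molecules.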

Additional observations from a re-analysis of the deposited data

Results flagged for a closer look

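In 10 of 40 groups of 5 libraries, a member's value lay far from the other 4 by Dixon's test, where chance gives about 1 in 20 groups, or about 2. All 10 were replicate 5 libraries, 7 of them of cdKO. In cdKO replicate 5, the share of counts on the last exonic block was 48.35% for Isl1, 48.85% for Isl2, 68.5% for Lhx1, 86.73% for Lhx3, 78.42% for Lhx4, 58.12% for Lhx5 and 86.77% for Mnx1. In control replicate 5 that share was 57.14% for Lhx1 and 46.66% for Lhx4. The log2 ratio of Lhx1 to Isl1 in control replicate 5 was -9.127, against -4.52 to -4.11 in the other controls.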

How the results depend on the processing

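Isl1 kept a negative log2 fold change in all 21 alternatives (-0.96 to -0.62), with an unadjusted p under 0.05 in 20 of them and an adjusted p of at least 0.466, and no member passed the adjusted threshold in any. The directions of the other members did not hold throughout, and the cause was not tested. Leaving out each library in turn, the log2 fold change was -0.55 to 0.067 for Isl2, -0.035 to 0.65 for Lhx1, -0.099 to 0.42 for Lhx3, -0.14 to 0.13 for Lhx4, -0.034 to 0.68 for Lhx5 and -0.17 to 0.12 for Mnx1. Limma-voom with sample quality weights gave -0.53 for Lhx1 and -0.0015 for Lhx4. Library size alone gave -0.11 for Lhx4 and moved the median of all genes from -0.02 to -0.15. DESeq2's size factors gave 0.00040 for Mnx1 and the bin with most counts 0.048. Of the alternatives chosen after seeing the data, bins upstream of the last block gave -0.069 for Lhx4, and the last block alone gave 0.053 for Mnx1. Genes past the adjusted threshold, 0 in the reported test, numbered 19 with DESeq2's Wald test, 13 with limma-voom, 1 each with library size alone, no filter, upstream bins or the last block alone, and 0 to 4 with a library left out (4 without control replicate 5 and 1 without cdKO replicate 5). At an unadjusted p under 0.05, 891 genes differed. In the MN determination list, DESeq2 and limma-voom each called 1 gene. Correlated pairs, 3 as reported, numbered 0 to 6 with a library left out, 0 without replicate 5 of both groups and 7 with upstream bins. As the level per kilobase, the bin with most counts gave 0.132 for Lhx2 and 3.22 for Lhx4. Same-numbered libraries of the groups had deviations correlated at 0.094, -0.316, 0.165, 0.428 and 0.362, within the -0.526 to 0.686 of different-numbered libraries. Whether the numbers pair libraries was not tested, and the reported test does not pair them. With the replicate number as a block 0 genes passed (461 at an unadjusted p under 0.05), Mnx1 changed sign to 0.015 and Isl1 was -0.80. The common biological coefficient of variation, which limits what 5 libraries a group can show, was 0.54.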
